A study of Caenorhabditis elegans with 19 samples.

Results

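The TSR-2 depletion experiment comprised 5 of the 19 libraries of the series, 3 from gonads of auxin-treated animals and 2 from gonads of animals kept on the ethanol solvent. These libraries were chosen by their labels alone, and every feature of a count table in which reads with several possible positions are divided among them was considered. The auxin animals were late L4 Caenorhabditis elegans hermaphrodites of strain ESC420 placed on 1 mM indole-3-acetic acid for 18 h at 20 °C, and the ethanol animals were of the same strain, stage and temperature on plates with an equal volume of solvent. Each library came from the total RNA of 20 pooled dissected gonads of young adults. The labels describe ESC420 as an auxin-inducible degron strain for TSR-2 and do not give its alleles or the promoter of the auxin receptor. Auxin-treated animals without a degron are not among the labelled groups, so TSR-2 loss and any effect of auxin itself cannot be told apart. The same table holds 6 libraries of a GRWD-1 degron strain (ESC422) and 6 of an RPOA-2 degron strain (ESC332), each with 3 auxin and 3 ethanol libraries made with the same treatment, time and stage, which served to test whether a difference was larger than in another depletion.

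A small ribosomal subunit is built around 18S rRNA and a large one around 26S, 5.8S and 5S rRNA, and the 18S, 5.8S and 26S molecules are cut from a single RNA polymerase I transcript whose external (ETS) and internal (ITS) transcribed spacers are removed. The yeast counterpart of TSR-2 binds the small-subunit protein Rps26 and delivers it to pre-ribosomes. The hermaphrodite gonad holds germ cells from mitosis through meiosis to full-grown oocytes, wrapped by somatic sheath cells, and germ cells keep the X chromosome largely silent until late oogenesis.

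The libraries differed greatly in depth. They held 15918362, 24786783 and 328549 counts in auxin replicates 1, 2 and 3, against 28315935 and 23951882 counts in ethanol replicates 1 and 2. Protein-coding genes took 1903532, 3950204 and 43631 of these in the auxin libraries and 3766421 and 2055048 in the ethanol libraries. Levels are given as CPM (counts scaled to 1e6 protein-coding counts) after scaling between libraries, so 3 counts stood for 62.8 CPM in auxin replicate 3 and for 0.810 to 1.58 CPM in the other 4. A gene at 0 in auxin replicate 3 may thus lie anywhere below about 62.8 CPM, a limit that covers counting error only because the reads were amplified by PCR without molecular identifiers. Ethanol replicate 2 stood apart in small RNAs: 5S rRNA made up 0.0991% of its counts, against 0.00434 to 0.0487% in the other 4 libraries, and small nucleolar RNAs 0.0884% against 0.0102 to 0.0387%. Markers of germ cells summed to 7425, 8060 and 7174 CPM in auxin and 6821 and 5898 CPM in ethanol gonads, and all 12 of them passed the filter on low counts. Sperm markers were nearly absent, with 2.90, 3.78 and 0 CPM in auxin gonads, where 9, 9 and 11 of the 11 were at 0, and 24.8 and 11.2 CPM in ethanol gonads, where 2 and 4 were at 0. Markers of the gonadal sheath summed to 133, 145 and 105 CPM in auxin gonads, with 5 of 7 at 0 in replicate 3, and to 246 and 194 CPM in ethanol gonads. Intestinal markers summed to 0 to 20.3 CPM in auxin and 22.95 to 24.02 CPM in ethanol gonads. The ranges overlapped for the distal tip cell (20.9 to 52.5 CPM in auxin, 51.4 to 81.3 CPM in ethanol), the hypodermis (6.21 to 10.5 and 6.78 to 13.8 CPM) and neurons (54.2 to 85.5 and 49.3 to 81.7 CPM). No marker of these other cell types passed a test. In such bulk samples fewer cells of a type and less RNA per cell cannot be told apart.

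Gonads of TSR-2-depleted animals held less 18S rRNA relative to 26S rRNA. There were 0.446, 0.341 and 0.424 counts of 18S for each count of 26S in the auxin libraries, against 0.708 and 0.876 in the ethanol libraries. Every auxin library, the shallow one included, lay below both ethanol libraries. The mean was 0.404 ± 0.0551 in auxin gonads (SD, n = 3) and 0.792 ± 0.119 in ethanol gonads (SD, n = 2), a log2 difference of -0.97 or a ratio of 0.510 between geometric means. The two-sided exact permutation p was 0.2, the smallest that 3 libraries against 2 allow, so no comparison of this kind can reach 0.05. Written as a share, 18S made up 30.8, 25.4 and 29.8% of the 18S and 26S counts together in auxin gonads and 41.4 and 46.7% in ethanol gonads. The 95% Wilson interval of the shallow library was 29.6 to 30.0%, which covers counting error only. With only the first annotated 18S copy the log2 difference was -0.99, and with counts of the other strand added it was -0.97.

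Both sides of the ratio moved in the share of all counts, while rRNA as a whole did not separate the groups. The 18S share was 23.9, 19.2 and 23.1% in auxin gonads, against 32.3 and 37.1% in ethanol gonads. The 26S share was 53.7, 56.4 and 54.6% in auxin gonads, against 45.6 and 42.4% in ethanol gonads, again without overlap. All rRNA together took 77.7 ± 1.24% in auxin and 79.3 ± 1.43% in ethanol gonads (SD, n = 3 and 2), and these overlapped (exact permutation p = 0.6). Set against protein-coding counts instead, the difference lay in 18S: 2.00, 1.21 and 1.74 counts of 18S per protein-coding count in auxin gonads, against 2.43 and 4.32 in ethanol gonads (ratio of geometric means 0.499), with 26S at a log2 difference of -0.03 and overlapping libraries (exact permutation p = 1). In the edgeR quasi-likelihood fit, the first 18S copy, rrn-1.1, had a log2 change of -1.07 and a Benjamini-Hochberg adjusted p of 0.33, and the second copy -1.04 and 0.353. In DESeq2, an alternative run without a filter on low counts, both copies passed, with adjusted p of 0.00639 and 0.00932.

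**Figure D1:**
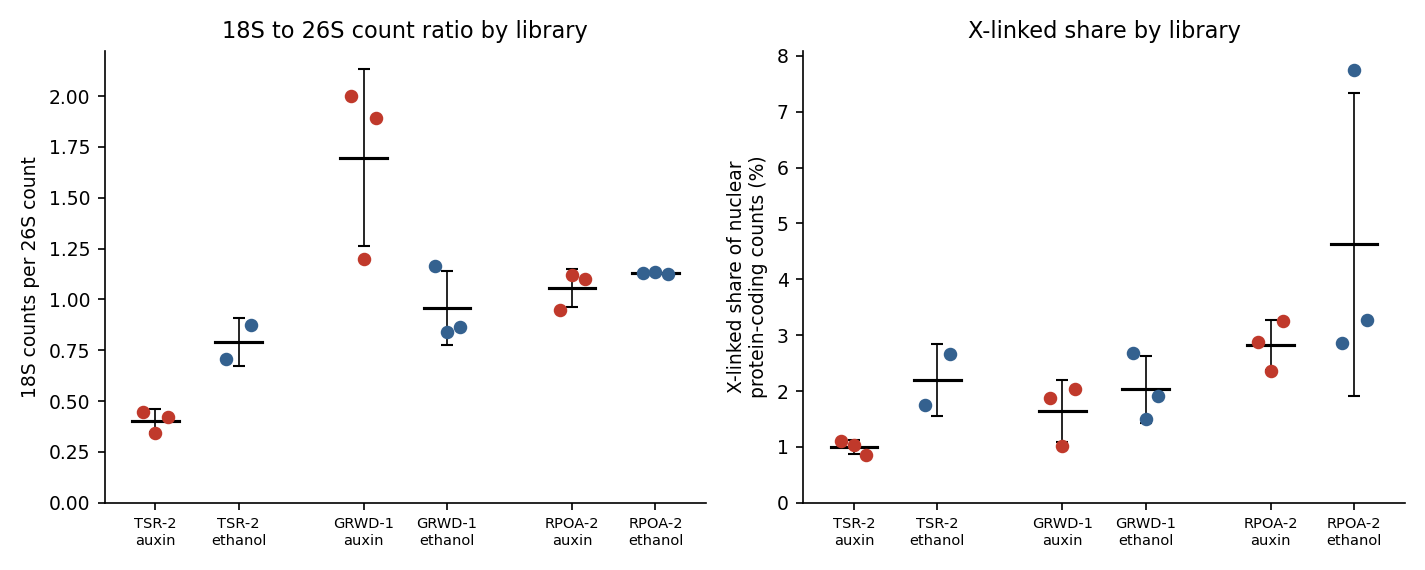
18S counts per 26S count (left) and the X-linked share of nuclear protein-coding counts in percent (right) in each library of the 3 strains, auxin in red and ethanol in blue. Bars are means with SD; in the TSR-2 strain the 3 auxin libraries lie at 0.341 to 0.446 on the left and at 0.863 to 1.097% on the right, below both ethanol libraries in each panel.

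The 18S to 26S ratio was compared with the other depletions by regrouping libraries within each strain. These regroupings assume no auxin effect in either strain. A small p can thus come from a change in either strain alone and does not test whether the effects are equal. Auxin changed the log2 ratio by -0.97 in the TSR-2 strain and by 0.81 in the GRWD-1 strain, where GRWD-1 is labelled a ribosome assembly chaperone. The difference of -1.78 had the smallest p the regroupings can give (permutation p = 0.01), but the adjusted p over the 16 such differences computed was 0.0533. It was -1.82 without auxin replicate 3 (permutation p = 0.0167). Against the RPOA-2 strain the difference was -0.87 with a permutation p of 0.2 and an adjusted p of 0.373. In that strain a subunit of RNA polymerase I was depleted and the ratio changed by -0.10. Set against protein-coding counts, 18S was lower without overlap in each strain, at geometric mean ratios of 0.499 (TSR-2), 0.435 (GRWD-1) and 0.347 (RPOA-2). For 26S the ratios were 0.979, with overlapping libraries, 0.249 and 0.372 in the same order. On this scale a lower 18S level was thus not particular to the TSR-2 strain. As a share of all counts, 18S overlapped in the GRWD-1 strain, at means of 41.3% in auxin and 38.5% in ethanol gonads.

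The transcribed spacers, which are removed from precursors of rRNA, did not move as a block. Per 1000 counts of 26S, the 5′ external spacer gave 0.334, 0.456 and 0.273 counts in auxin gonads, against 0.565 and 0.730 in ethanol gonads, a log2 difference of -0.89. The 3′ external spacer gave 0.312, 0.353 and 0.274 counts in auxin gonads, against 0.445 and 0.521 in ethanol gonads, a log2 difference of -0.63. For both external spacers all auxin libraries lay below all ethanol libraries (exact permutation p = 0.2, the smallest possible).

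The internal spacers did not separate the groups. ITS1, between 18S and 5.8S, gave 2.64, 2.67 and 2.36 counts per 1000 of 26S in auxin gonads and 2.09 and 3.74 in ethanol gonads. ITS2, between 5.8S and 26S, gave 54.2, 39.8 and 34.7 counts in auxin gonads and 37.7 and 74.2 in ethanol gonads. The ethanol libraries lay on either side of the auxin range for ITS1 and overlapped it for ITS2, with log2 differences of -0.13 and -0.33. For 5.8S the ethanol libraries lay on either side too, at 9.02, 8.25 and 9.48 counts per 1000 of 26S in auxin gonads and 6.11 and 13.7 in ethanol gonads. In every one of these libraries ITS2 thus gave more counts than mature 5.8S. Whether the ITS2 counts measure precursors alone was not tested. Set against mature 18S, ITS1 was higher without overlap, at 5.93, 7.81 and 5.57 counts per 1000 of 18S in auxin gonads and 2.95 and 4.28 in ethanol gonads, a ratio of 1.79 between geometric means. On that scale the external spacers were not lower, at log2 differences of 0.08 (5′, overlapping libraries) and 0.34 (3′, higher without overlap). The rRNA repeat of the annotation lies on chromosome I at 15062083 to 15071033 of WBcel235, and its copies and strands cannot be told apart by these fractional counts.

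**Figure D2:**
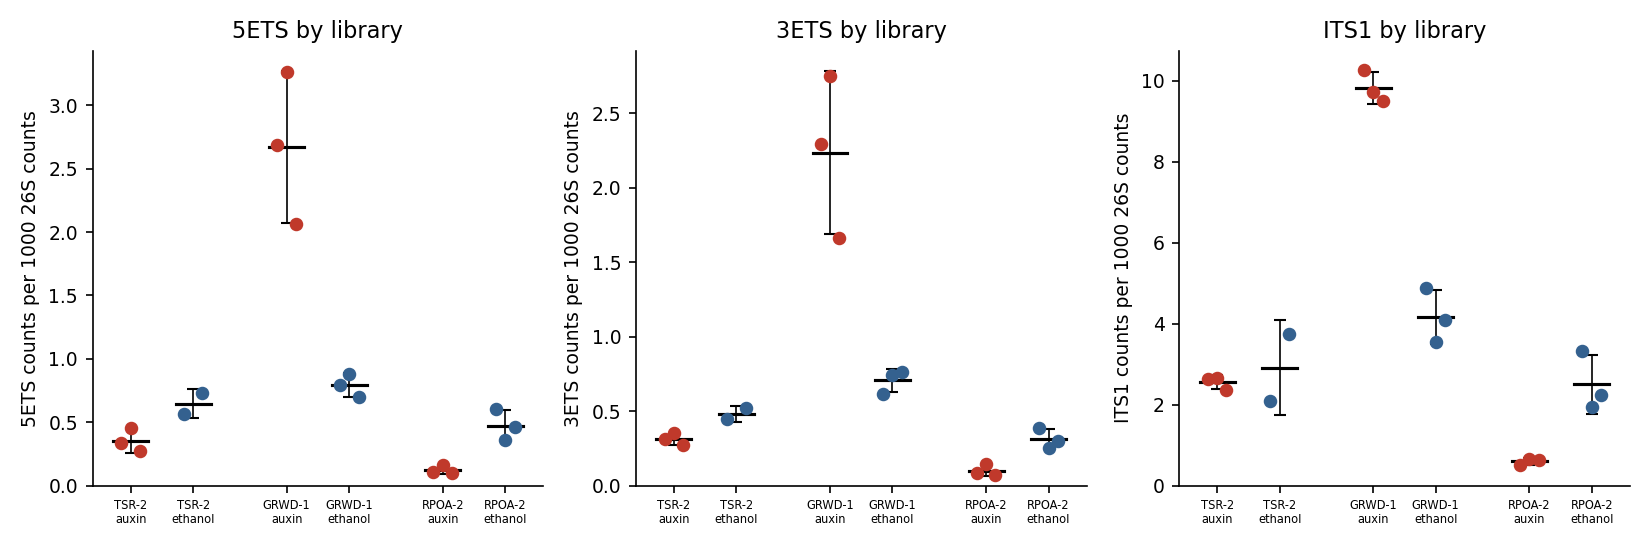
Counts of the 5′ external, 3′ external and first internal transcribed spacers per 1000 counts of 26S in each library of the 3 strains, auxin in red and ethanol in blue, with means and SD. In the TSR-2 strain the auxin libraries lie at 0.273 to 0.456 (5′) and 0.274 to 0.353 (3′), below both ethanol libraries, while for ITS1 they lie between the 2 ethanol libraries.

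Per count of 26S, the external spacers moved in opposite directions in the TSR-2 and GRWD-1 strains. The regrouping p again fell short of the correction and does not test whether the effects are equal. The log2 difference per 26S was -0.89 in the TSR-2 strain and 1.73 in the GRWD-1 strain for the 5′ spacer, and -0.63 and 1.64 for the 3′ spacer. Per protein-coding count it was below 0 in both strains, at -0.92 and -0.27 (5′) and -0.66 and -0.37 (3′). The 26S counts themselves changed by -0.03 and -2.01 on that scale. The differences between the strains per 26S, -2.62 and -2.27, each had a permutation p of 0.01 and an adjusted p of 0.0533 over the 16. In the edgeR quasi-likelihood fit of the difference from the RPOA-2 strain, the log2 change of the 5′ spacer was 2.53 higher in the TSR-2 strain (Benjamini-Hochberg adjusted p = 0.05), that of ITS1 3.29 higher (adjusted p = 0.0329) and that of the 3′ spacer 2.48 higher (adjusted p = 0.0329). In CPM the changes behind these were -0.94, -0.30 and -0.69 in the TSR-2 strain, where none passed (adjusted p of 0.184, 0.762 and 0.269), against -3.38, -3.50 and -3.09 in the RPOA-2 strain. The library names of the RPOA-2 libraries lie in another range of numbers than the rest, and strain and that range cannot be told apart. Without auxin replicate 3 the differences of the 3 spacers were 2.69, 3.39 and 2.59 and none passed (edgeR adjusted p = 0.0637 for each).

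The RNA of the depleted gene does not check the depletion, which acts on the protein. tsr-2 (chromosome IV, 16656613 to 16657359) had 140, 150 and 230 CPM in auxin gonads, against 81.8 and 84.3 CPM in ethanol gonads. All auxin libraries lay above both ethanol libraries, with a log2 change of 0.92 ± 0.28 (SE) and a Benjamini-Hochberg adjusted p of 0.184 in the edgeR fit. Over all tested protein-coding genes 12.8% were higher in every auxin library. The log2 change of tsr-2 was 0.60 in the GRWD-1 strain and 0.46 in the RPOA-2 strain, and neither passed. rps-26, the gene of the ribosomal protein whose yeast counterpart is the client, had 1033, 1123 and 1236 CPM in auxin gonads and 1029 and 1075 CPM in ethanol gonads. These overlapped, and the log2 change was 0.09 ± 0.22 (SE; edgeR adjusted p = 0.906).

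Of 46930 features, 6795 passed the filter on low counts and were tested together with edgeR's quasi-likelihood test. At a Benjamini-Hochberg adjusted p under 0.05, 1 rose (0.0147% of those tested) and 9 fell (0.132%), 0.147% in all, and 905 had an unadjusted p under 0.05. The p-values measure the spread between these libraries, since the labels do not say that they came from separate cultures. Without auxin replicate 3, 0 of 7240 features passed in edgeR, although 1067 had an unadjusted p under 0.05. These 10 features are therefore described with all their values.

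prg-1, the Piwi-class Argonaute that binds piRNAs in germ cells, was the feature that rose. It had 1720, 1603 and 1906 CPM in auxin gonads, against 617.1 and 717 CPM in ethanol gonads, so every auxin library lay far above both ethanol libraries. The log2 change was 1.38 ± 0.23 (SE), with an edgeR adjusted p of 0.0422. The gene lies on chromosome I at 7585329 to 7588367 on the minus strand and overlaps a gene on the other strand.

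A pair of the genes that fell encode folding factors of the endoplasmic reticulum (ER). hsp-3, a luminal Hsp70 chaperone of the BiP family (X, 6089028 to 6092124), had 96.4, 102 and 83.8 CPM in auxin gonads, against 353 and 448 CPM in ethanol gonads. Its log2 change of -2.03 ± 0.24 (SE) had the smallest adjusted p in the edgeR fit, 0.0109. pdi-2, a protein disulfide isomerase (X, 4524155 to 4526536), had 30.8, 30.0 and 105 CPM in auxin gonads, against 155 and 217 CPM in ethanol gonads (log2 change -2.44 ± 0.37, edgeR adjusted p = 0.0346). The 105 CPM of the shallow library rested on few counts, and the other auxin values lay far below the ethanol range.

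A second pair encode large proteins of the membrane-linked cytoskeleton. vab-10, the spectraplakin (I, 11747424 to 11804991), had 229, 399 and 209 CPM in auxin gonads, against 1041 and 945 CPM in ethanol gonads (log2 change -1.75 ± 0.28, edgeR adjusted p = 0.0346). unc-70, beta-spectrin (V, 6881338 to 6891839), had 26.7, 37.3 and 20.9 CPM in auxin gonads, against 118 and 106 CPM in ethanol gonads (log2 change -1.82 ± 0.30, edgeR adjusted p = 0.0351). Neither pair of groups overlapped. Both genes overlap others on each strand, and counts of overlapping genes are uncertain here because the strand setting of the counting is not given in the sources used here.

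Of the other 5, pqn-65, named for a glutamine- and asparagine-rich stretch (X, 4610911 to 4619635), had 59.0, 85.8 and 41.9 CPM in auxin gonads, against 315 and 312 CPM in ethanol gonads (log2 change -2.16 ± 0.28, edgeR adjusted p = 0.0114). The long noncoding RNA Y9D1A.1 (II, 7446672 to 7448544) had 16.06, 21.2 and 62.8 CPM in auxin gonads, against 91.6 and 104 CPM in ethanol gonads (log2 change -2.26 ± 0.37, edgeR adjusted p = 0.0351). For both, the groups did not overlap.

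The last 3 were low in auxin gonads and had 0 counts in the shallow library, which leaves their level there unknown below 62.8 CPM. fdgt-1 (II, 1504566 to 1509831) had 1.58, 2.43 and 0 CPM in auxin gonads, against 29.4 and 40.7 CPM in ethanol gonads (log2 change -4.06 ± 0.57, edgeR adjusted p = 0.0212). Y46H3C.5 (V, 1691029 to 1692495) had 3.42, 14.6 and 0 CPM in auxin gonads, against 75.9 and 95.5 CPM in ethanol gonads (log2 change -3.19 ± 0.51, edgeR adjusted p = 0.0346). myrf-1, a membrane-tethered transcription factor known from larval moulting (II, 10496987 to 10502541), had 2.11, 3.38 and 0 CPM in auxin gonads, against 33.3 and 25.3 CPM in ethanol gonads (log2 change -3.41 ± 0.58, edgeR adjusted p = 0.0422). For fdgt-1 and myrf-1 even the ethanol levels lay below what 3 counts mean in the shallow library, so the falls rest on the other 4 libraries.

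**Figure D3:**
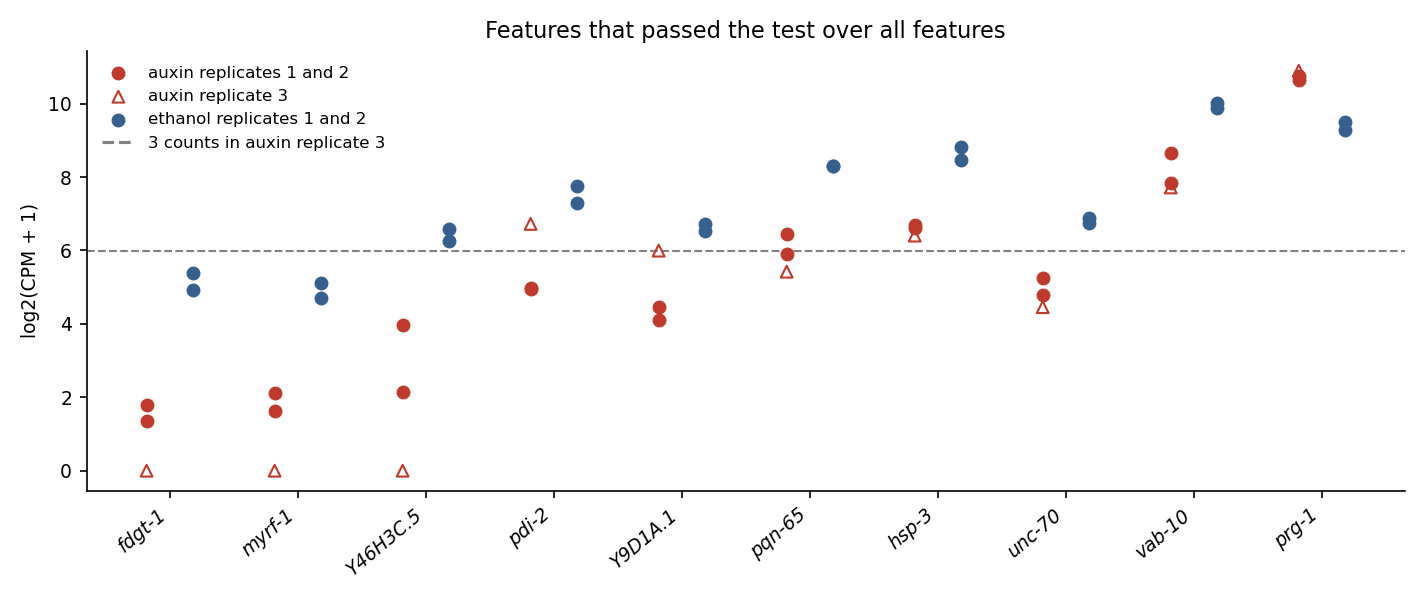
log2(CPM + 1) of the 10 features that passed the test over all features, ordered from the largest fall to the rise of prg-1, with auxin libraries in red (open triangles, replicate 3) left of ethanol libraries in blue. The dashed line marks 3 counts in auxin replicate 3, 62.8 CPM; for each feature the auxin and ethanol libraries do not overlap.

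The count of calls depended on what was tested together. When the 6396 tested protein-coding genes were fitted alone, which leaves the rRNA and other noncoding features out of the estimate of the spread, 34 rose and 129 fell at an edgeR adjusted p under 0.05, or 0.532 and 2.02% and 2.55% in all. All 163 kept their direction and an unadjusted p under 0.05 when auxin replicate 3 was left out. This smaller fit reuses the deeper libraries that selected the genes, so this is not separate support. After adjustment 6 of 6776 genes, 0.0885%, passed in that smaller fit, and all 6 fell. These were hsp-3, pdi-2, pqn-65, unc-70, fdgt-1 and T28C6.7, the last at 42.4, 48.1 and 0 CPM in auxin gonads, against 137 and 132 CPM in ethanol gonads. Of the 163 genes, 58 had 0 counts in auxin replicate 3, and 54 had both group means below its limit of 3 counts. The libraries did not overlap for 146 of the 163, where 12.8% of all tested protein-coding genes were higher and 19.8% lower in every auxin library. Below, a gene is said to have risen or fallen when it passed in this fit of protein-coding genes, and except for the 6 above none of these calls held without auxin replicate 3.

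The X chromosome stood apart from the autosomes. X-linked genes took 1.097, 1.03 and 0.863% of nuclear protein-coding counts in auxin gonads, against 1.75 and 2.66% in ethanol gonads. The means were 0.998 ± 0.121% in auxin (SD, n = 3) and 2.21 ± 0.645% in ethanol gonads (SD, n = 2), and the ratio of X to autosomal counts had a log2 difference of -1.14 (exact permutation p = 0.2, the smallest possible). Of 517 tested X-linked genes, 55 fell and 0 rose, or 10.6%, against 72 falls (1.23%) and 34 rises (0.580%) among 5867 autosomal genes. Without auxin replicate 3, 3 X-linked and 3 autosomal genes fell. Gonadal sheath markers summed lower too, without overlap. They came to 133, 145 and 105 CPM in auxin gonads (5 of 7 at 0 in the shallow library) and 246 and 194 CPM in ethanol gonads. Of the 5 tested, 4 lay below 0 and 1 above, 2 were lower in every auxin library, and 0 passed. Over all tested protein-coding genes 19.8% were lower in every auxin library. The 2 markers, inx-9 and mup-2, had 0 counts in auxin replicate 3 and ethanol levels below its limit of 62.8 CPM. Their separation thus rests on the other libraries. The part of the sheath markers in the X-linked shift and in the lists below was not tested.

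The shift covered most X-linked genes and not a few. Their median log2 change was -1.05, against 0.01 for autosomal genes, and 470 of 517 lay below 0. In every auxin library 305 of them (59.0%) lay below both ethanol libraries, against 955 autosomal genes (16.3%). Only 5 (0.967%) lay above both, against 813 autosomal genes (13.9%). A gene at 0 in auxin replicate 3 cannot lie above both ethanol libraries there, and lies below any ethanol level above 0. Of all genes, tested or not, 2572 of 2731 X-linked and 12536 of 17242 autosomal ones were at 0 in that library. How far its depth sets these shares was not tested. The medians without auxin replicate 3 were -0.99 and 0.06. The median X-linked log2 change was -0.28 in the GRWD-1 strain and -0.34 in the RPOA-2 strain, and the difference in the X to autosome ratio did not pass against either, at -0.81 (permutation p = 0.32, adjusted p = 0.411) and -0.54 (permutation p = 0.58, adjusted p = 0.619). The 12 mitochondrially encoded genes had a median of -0.69, and 2 of them fell, where 2.02% of all tested protein-coding genes did.

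**Figure D4:**
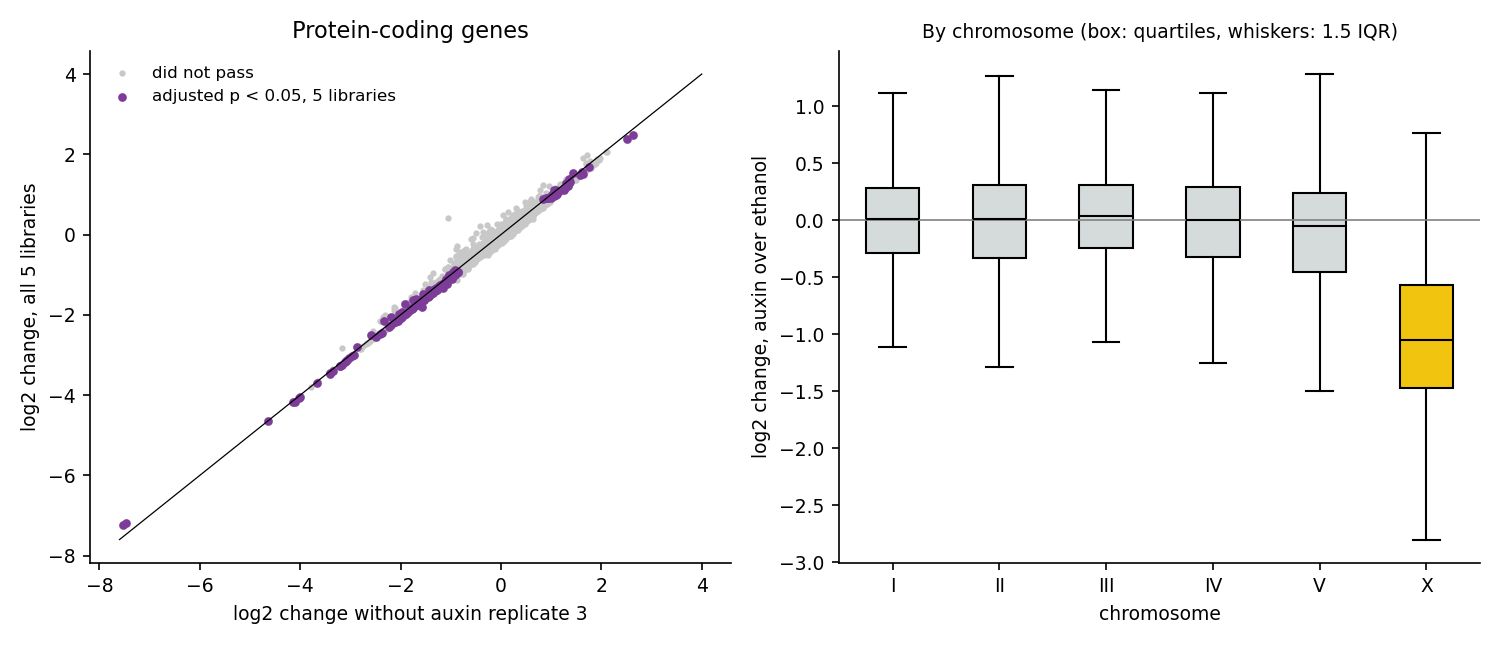
Left, the log2 change (auxin over ethanol) of each tested protein-coding gene without auxin replicate 3 (horizontal) and with all 5 libraries (vertical), with the 163 genes that passed in purple and a line of equality. Right, log2 changes by chromosome, boxes giving quartiles; the X median lies at -1.05, and those of chromosomes I to V between -0.05 and 0.04.

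The ER lists lay on the lower side. The ER sorts and folds secreted and membrane proteins, yolk receptors and eggshell components among them. Of 24 tested chaperones, folding enzymes and stress-response genes of the ER, 8 fell and 0 rose, 21 lay below 0, and 15 were lower in every auxin library. Over all tested protein-coding genes 2.02% fell, 52.8% lay below 0 and 19.8% were lower in every auxin library. The list also held ckb-2, a choline kinase, whose libraries overlapped; without it 8 of 23 fell, 20 lay below 0, and the median log2 change was -0.92. The summed level without ckb-2 was 4625, 4693 and 3938 CPM in auxin gonads, against 6286 and 8137 CPM in ethanol gonads. The full list's median log2 change was -0.93 (-0.88 without auxin replicate 3), against -0.04 (0.03) for all tested protein-coding genes. In the test over all features 2 of the 24, hsp-3 and pdi-2, fell. The list held many X-linked genes: 5 of its 7 X-linked members fell, against 3 of 17 autosomal members, whose median was -0.53. The medians of the list were -0.59 in the GRWD-1 strain and -0.48 in the RPOA-2 strain.

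Beside hsp-3 and pdi-2 the list's largest fall among those that passed was pdi-6, another disulfide isomerase, at 13.2, 10.3 and 0 CPM in auxin gonads and 42.7 and 68.1 CPM in ethanol gonads (log2 change -2.30, edgeR adjusted p = 0.00216). crt-1, the calcium-binding chaperone calreticulin, had 606.8, 581 and 524 CPM in auxin gonads, against 916 and 1436 CPM in ethanol gonads (log2 change -1.03, edgeR adjusted p = 0.0187). The remaining 4 were pdi-3, uggt-1 (the glucosyltransferase that senses misfolded glycoproteins), the cyclophilin cyn-7 and the stress kinase pek-1. xbp-1, the transcription factor of the unfolded protein response, was among the 3 members above 0, at a log2 change of 0.76, and did not pass. Of 18 tested genes of the translocon, signal peptidase and glycosylation, 1 fell, where 2.02% of all tested protein-coding genes did: sec-61.A, the channel subunit, at 323, 447 and 419 CPM in auxin gonads and 839 and 769 CPM in ethanol gonads (log2 change -1.04, edgeR adjusted p = 0.0146). The median of that list was -0.51.

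Yolk proteins are made in the intestine and taken up by oocytes through RME-2, so their RNA in a gonad library need not come from germ cells. Of the 6 vitellogenin genes and rme-2, 4 fell (2.02% of all tested protein-coding genes did), all 7 were lower in every auxin library (19.8% over all), and the median log2 change was -1.34 (-1.23 without auxin replicate 3). Of these 7 genes 5 are X-linked, and all 4 falls were among them. Of all 517 tested X-linked genes 10.6% fell and 59.0% were lower in every auxin library. The 2 autosomal members had a median of -0.64. vit-5 had 94.2, 105 and 20.9 CPM in auxin gonads, against 285 and 207 CPM in ethanol gonads (log2 change -1.38, edgeR adjusted p = 0.00339), and vit-1, vit-3 and vit-4 were the others that fell. These genes share near-identical sequence: the fractional counts of vit-3 and vit-4 were 4.55 and 3.70 times their unique counts, and the split between them is uncertain. rme-2 itself had 963, 952 and 1026 CPM in auxin gonads and 1078 and 1275 CPM in ethanol gonads, with a log2 change of -0.27 that did not pass. The intestinal markers summed to 10.5, 20.3 and 0 CPM in auxin gonads and 24.02 and 22.95 CPM in ethanol gonads, where the 0 is that of the shallow library. The 1 intestinal marker tested, act-5, overlapped (log2 change -0.16) and did not pass, and the part of these markers in the result was not tested. The list's median was -1.11 in the GRWD-1 strain and -3.56 in the RPOA-2 strain.

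Genes of the eggshell, the layered coat laid down around the fertilised oocyte, included 3 falls among 18 tested, where 2.02% of all tested protein-coding genes fell. perm-4 had 280, 389 and 83.8 CPM in auxin gonads, against 841 and 1207 CPM in ethanol gonads (log2 change -1.80, edgeR adjusted p = 0.000887). perm-2 had 161, 244 and 356 CPM in auxin gonads, against 538 and 811 CPM in ethanol gonads (log2 change -1.61, edgeR adjusted p = 0.00209). The products of both genes belong to the permeability barrier of the egg. cpg-3, a chondroitin proteoglycan, had 136, 128 and 83.8 CPM in auxin gonads, against 227 and 403 CPM in ethanol gonads (log2 change -1.31, edgeR adjusted p = 0.00566). None of these 3 groups of libraries overlapped. egg-5, a pseudophosphatase of the egg-to-embryo transition, was on the other side at a log2 change of 0.69 and did not pass. The list's median was -0.39, against 0.01 in the GRWD-1 strain and 0.10 in the RPOA-2 strain. For perm-4 the edgeR difference from these strains was -1.82 and -2.08, with unadjusted p of 0.00325 and 0.00121 that did not pass adjustment.

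Germline chromatin and RNA regulators changed in few members, to be read against the 2.02% of all tested protein-coding genes that fell and the 0.532% that rose. Of 3 linker histone genes tested, 2 fell: hil-2, at 46.3, 38.6 and 20.9 CPM in auxin gonads and 136 and 83.8 CPM in ethanol gonads (log2 change -1.42, edgeR adjusted p = 0.00803), and hil-5, at 95.8, 118.6 and 62.8 CPM in auxin gonads and 200 and 215 CPM in ethanol gonads (log2 change -0.996, edgeR adjusted p = 0.0205). The list's median was -1.01, and -0.93 and -1.42 in the GRWD-1 and RPOA-2 strains. Of 62 core histone genes, 0 passed, with a median of -0.35. Among 13 genes of histone H3 lysine 4 methylation, amx-1, an amine-oxidase-domain demethylase homologue, fell to 1.58, 1.89 and 0 CPM in auxin gonads, against 18.7 and 15.5 CPM in ethanol gonads (log2 change -3.27, edgeR adjusted p = 0.0125), and the list's median was -0.07.

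Among meiotic genes syp-1, a central-region protein of the synaptonemal complex, rose: it had 372, 396 and 335 CPM in auxin gonads, against 209 and 141.7 CPM in ethanol gonads (log2 change 1.096, edgeR adjusted p = 0.0113). It was the call among 19 genes of that complex and the chromosome axis, with a median of 0.20, and among the 12 germ-cell markers. Over all tested protein-coding genes 0.532% rose. Of 25 recombination genes, 0 passed, with a median of 0.11. Of 17 regulators of stem cells and meiotic entry, 0 passed (median -0.20), and of 18 oocyte RNA-binding proteins, 0 passed (median -0.29). The nearest of these 18 were car-1, at a log2 change of -0.82, and lin-41, the regulator of oocyte growth and maturation, at -0.89, both with an edgeR adjusted p of 0.0626. Of 16 genes of P granules, the germ-cell RNA condensates, 1 fell, where 2.02% of all tested protein-coding genes did. This was the X-linked meg-3, at 38.7, 34.0 and 83.8 CPM in auxin gonads and 87.0 and 113 CPM in ethanol gonads (log2 change -1.39, edgeR adjusted p = 0.0113). The helicase glh-1 had a log2 change of 0.72 that did not pass, and the list's median was -0.20.

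Genes of ribosome assembly lay on the higher side with few calls. Of 20 tested small-subunit assembly factors 1 rose, where 0.532% of all tested protein-coding genes did: rbd-1, an RNA-binding protein of pre-rRNA processing, at 713, 761 and 775 CPM in auxin gonads and 457.6 and 338 CPM in ethanol gonads (log2 change 0.90, edgeR adjusted p = 0.0388). In all 16 of the 20 lay above 0, against 47.2% of all tested protein-coding genes, and the median was 0.33. Of 20 large-subunit factors 1 rose, pro-3, at 573, 529 and 677 CPM in auxin gonads and 348 and 278 CPM in ethanol gonads (log2 change 0.87, edgeR adjusted p = 0.0493), with 18 above 0 and a median of 0.56. Both medians were above 0 in the other strains too, at 0.36 and 0.33 in the GRWD-1 strain and 0.27 and 0.32 in the RPOA-2 strain. Of 12 RNA polymerase I subunit genes, 0 passed and the median was 0.04.

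The ribosomal proteins did not move together. Of 31 small-subunit genes 0 passed, with a median log2 change of -0.03. The member with one of the smallest p-values was rps-6, at 2715, 2964 and 2639 CPM in auxin gonads and 4542 and 4370 CPM in ethanol gonads, without overlap (log2 change -0.68, edgeR adjusted p = 0.104). Of 47 large-subunit genes 1 fell, where 2.02% of all tested protein-coding genes did. This was rpl-41.2, but its libraries overlapped, at 61.1, 20.9 and 20.9 CPM in auxin gonads and 46.4 and 215 CPM in ethanol gonads. The fall (log2 change -1.74, edgeR adjusted p = 0.0357) rests on ethanol replicate 2, without which the log2 change was -0.24. The median of that list was 0.06. Of 70 mitochondrial ribosomal proteins 1 rose (0.532% of all tested protein-coding genes did), mrpl-9, at 156, 113 and 272 CPM in auxin gonads and 63.9 and 36.5 CPM in ethanol gonads (log2 change 1.54, edgeR adjusted p = 0.00576). In that list 54 of 70 lay above 0, against 47.2% of all tested protein-coding genes, with a median of 0.36, and the medians were 0.48 and 0.20 in the GRWD-1 and RPOA-2 strains.

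Lists of general protein and energy metabolism held few calls. Of 46 genes of the respiratory chain 2 fell, where 2.02% of all tested protein-coding genes did: cox-7C, a cytochrome oxidase subunit, at 31.1, 26.9 and 41.9 CPM in auxin gonads and 83.1 and 84.3 CPM in ethanol gonads (log2 change -1.51, edgeR adjusted p = 0.00576), and sdha-1, of succinate dehydrogenase, at 21.4, 13.3 and 20.9 CPM in auxin gonads and 49.7 and 56.4 CPM in ethanol gonads (log2 change -1.63, edgeR adjusted p = 0.0141). Of these genes sdha-1 is X-linked and cox-7C is not. The list's median was -0.15, at -0.84 for its 4 X-linked members and -0.12 for its 42 autosomal members. None of the following passed: 32 aminoacyl-tRNA synthetases (median 0.13), 40 translation factors (0.11), 33 proteasome subunits (0.20), 11 heat shock proteins of the cytosol and mitochondria (-0.21), 13 genes of apoptosis and the DNA damage checkpoint (-0.04) and 12 glutathione S-transferases and oxidative stress genes (-0.27).

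**Figure D5:**
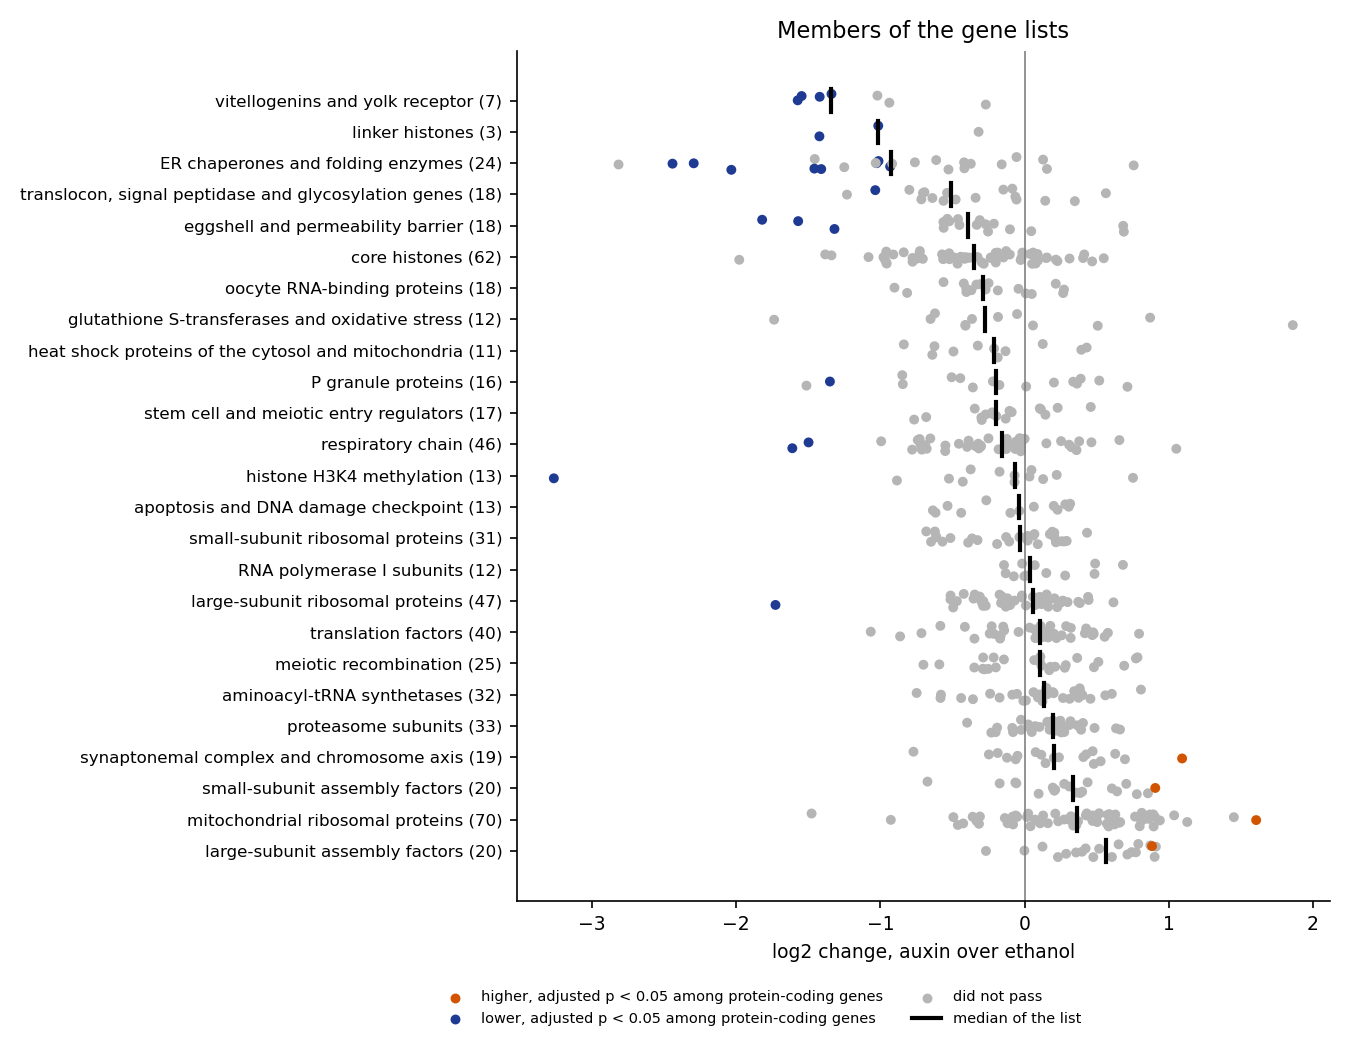
log2 change (auxin over ethanol) of each tested member of the 25 functional gene lists, one line per list with the number of tested members in brackets, ordered by median (black bar) from the lowest at the top. Orange and blue points passed the fit of protein-coding genes upward and downward; the vitellogenin list has the lowest median, -1.34, and the large-subunit assembly factors the highest, 0.56.

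Noncoding features gave 1 call in the test over all features, Y9D1A.1. Of 71 tested small nucleolar RNAs, guides of rRNA modification, 0 passed; their median log2 change was -1.65, 23 had an unadjusted p under 0.05, and for none did the auxin and ethanol libraries separate. That list moved with ethanol replicate 2, which held 0.0884% of its counts in small nucleolar RNAs, against 0.0102% in ethanol replicate 1 and 0.0291, 0.0131 and 0.0387% in the auxin libraries, and its part in the result was not tested. The 11 small nuclear RNAs showed the same, with a median of -1.80 and 0 without overlap. Of 174 tested pseudogenes, 0 passed, and their median log2 change was -0.09. At an unadjusted edgeR p under 0.05, 14 were lower and 7 higher. Without overlap 43 were lower and 13 higher, where 19.5 and 12.3% of all tested features were. The 4 pseudogenes with the smallest p-values all lay lower in auxin gonads. WBGene00021187, on chromosome II at 7450511 to 7453093, beside Y9D1A.1, had 4.21, 11.98 and 10.5 CPM in auxin gonads, against 48.9 and 53.1 CPM in ethanol gonads, and did not pass (log2 change -2.62, edgeR adjusted p = 0.0545).

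The 10 features described first were set against the other depletions. hsp-3, pdi-2 and vab-10 had log2 changes of -2.03, -2.44 and -1.75 in the TSR-2 strain, -1.79, -1.64 and -1.70 in the GRWD-1 strain, and -1.55, -1.61 and -1.03 in the RPOA-2 strain. prg-1 had 1.38 in the TSR-2 strain, against 0.55 and 0.76 in the GRWD-1 and RPOA-2 strains. pqn-65, unc-70, Y46H3C.5 and myrf-1 had -0.60, -0.99, -1.68 and -1.01 in the GRWD-1 strain. In the RPOA-2 strain they had -0.44, -0.76, -0.17 and -0.68. fdgt-1 and Y9D1A.1 had -1.74 and -1.19 in the GRWD-1 strain. In the edgeR fit of the difference from the GRWD-1 strain, 0 of 9675 features passed, 408 had an unadjusted p under 0.05, and DESeq2 called 18. Against the RPOA-2 strain 5 of 12362 passed, 0.0404%: the 3 spacers above, fdgt-1 and Y9D1A.1. The log2 change of fdgt-1 was -4.06 in the TSR-2 strain and -0.45 in the RPOA-2 strain, a difference of -3.52 (edgeR adjusted p = 0.05). That of Y9D1A.1 was -2.26 in the TSR-2 strain and 0.18 in the RPOA-2 strain, a difference of -2.39 (edgeR adjusted p = 0.0329). Without auxin replicate 3 Y9D1A.1 was the feature of the 5 that still passed (difference -2.48, edgeR adjusted p = 0.0182), and fdgt-1 did not (-3.50, edgeR adjusted p = 0.0987).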

How the data were processed

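Total RNA of dissected gonads was made into libraries with a SMARTer stranded kit and PCR, per the labels' protocols. Per the submitters' processing notes, Trim Galore 0.6.10, HISAT2 2.2.1, Picard and featureCounts 2.0.6 were used with WBcel235; the strand setting is not given in the sources used here. The authors deposited 2 kinds of table: fractional estimated counts, in which a read with several positions is divided among them (17 libraries, all used here for the results), and unique read counts, used here to see how far fractional counts exceed them. The fractional counts of 46930 features were rounded. Names came from the Ensembl annotation of WBcel235 for 46926 features, the other 4 being the spacers. R 4.3.3 with edgeR 4.0.16 fitted the 5 libraries by the quasi-likelihood test (filterByExpr with a minimum count of 10; library size, the sum of protein-coding counts with TMM factors; Benjamini-Hochberg adjustment over the features kept, threshold 0.05). limma 3.58.1 and DESeq2 1.42.0 were alternatives. The test was checked on simulated counts. Library depth is given with the results, and no pair of libraries agreed within counting noise. rRNA ratios were compared by two-sided exact permutation of 3 against 2 libraries. Differences between strains were compared by regrouping libraries within each strain, which assumes no auxin effect in either strain. Features were named by rule: tsr-2, rps-26 and rRNA; features that passed over all features, with the largest changes at 100 CPM or more first; those that passed without auxin replicate 3; up to 4 members of each of 25 functional and 7 marker lists by smallest p; and up to 5 noncoding features. fdgt-1, Y46H3C.5 and myrf-1, below 100 CPM, were named after their values were seen, since so few features passed. The experiment, the rule and the lists were chosen with earlier results of these data known. Names of some list members had no match in the table (for example 21 of 37 small-subunit assembly factors had one) and were left out.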

Additional observations from a re-analysis of the deposited data

Results flagged for a closer look

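Differences between the strains were computed as the auxin effect in the TSR-2 strain minus that in another strain, on the log2 scale. The permutation p of such a difference assumes no auxin effect in either strain, so it does not test whether the effects are equal. Of 16 differences in rRNA and X-linked ratios, 5 had a permutation p under 0.05, and none held an adjusted p under 0.05. Against the GRWD-1 strain these were the 18S to 26S ratio (-1.78, permutation p = 0.01), the 5′ external spacer per 26S (-2.62, permutation p = 0.01), the 3′ external spacer per 26S (-2.27, permutation p = 0.01) and ITS1 per 26S (-1.38, permutation p = 0.04, adjusted p = 0.128). Against the RPOA-2 strain it was the ratio of ITS1 to ITS2 (1.66, permutation p = 0.03, adjusted p = 0.12), which changed by 0.20 in the TSR-2 strain and by -1.46 in the RPOA-2 strain. In edgeR's fit of the difference from the RPOA-2 strain, 5 features passed after Benjamini-Hochberg adjustment: the 5′ external spacer (2.53), ITS1 (3.29), the 3′ external spacer (2.48), fdgt-1 (-3.52) and Y9D1A.1 (-2.39). Without auxin replicate 3 this was 1 feature, Y9D1A.1. Groups of 2 and 3 libraries were too small for a test of single outlying libraries.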

How the results depend on the processing

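The number of features called in the TSR-2 strain (10 in edgeR, 1 higher and 9 lower) moved widely with the processing. As shares of the features entered, leaving out 1 library gave 0 to 8.02%, against 0.147% with all 5: 22 calls without auxin replicate 1, 26 without auxin replicate 2, 0 without auxin replicate 3, 93 higher and 520 lower (8.02%) without ethanol replicate 1, and 200 without ethanol replicate 2, where the lone ethanol library is assumed to vary like the others. DESeq2 gave 35 (0.187%), limma voom with quality weights 3 (0.0442%), no filter on low counts 274 (1.46%), a mean of at least 100 CPM 2 (0.0868%), protein-coding genes alone 163 (2.55%), and all strains in one fit 29 (0.218%). Total library sizes without TMM gave 98 (1.34%; 24 higher and 74 lower, shifting the median log2 change of all features to 0.27, against -0.05, so that negative list medians nearer 0 than this shift would lie above 0), and protein-coding library sizes without TMM 10 (3 higher and 7 lower). Alternatives chosen after seeing the data gave 112 (1.65%) with a robust estimate of the spread, 52 (0.718%) with this and without auxin replicate 3, 6 (0.0885%) for protein-coding genes without auxin replicate 3, and 58 (0.857%) with the rRNA repeat left out; the cause was not tested. In all of these that made calls, falls outnumbered rises. Whether equal replicate numbers mark pairs is not known: the correlations of same-numbered deviations were -0.175 and -0.0694, which with 2 ethanol libraries mirror those of the other pairs and barely test it. With the replicate block the count was 0 (595 with an unadjusted p under 0.05), and with adjacent library numbers as block it was 115 (1.69%). The difference from GRWD-1 (0 calls) ranged from 0 to 4 calls when 1 library was left out and was 18 in DESeq2. That from RPOA-2 (5 calls) ranged from 0 to 5, was 15 in DESeq2 and 3 for protein-coding genes. The higher 26S share was gone as a ratio to protein-coding counts (log2 difference -0.0311, overlapping libraries). For 56 named genes and differences, 1030 alternative values were computed: 808 kept direction and side of the threshold, 65 lost the call, 157 gained one and 0 changed direction. Depth limits genes below 62.8 CPM in auxin replicate 3.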

Other observations

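Some genes outside the lists were picked after their values were seen. tag-151 had 503, 568 and 419 CPM in auxin gonads, against 304 and 209 CPM in ethanol gonads, and rose in the fit of protein-coding genes (log2 change 0.996, edgeR adjusted p = 0.0243). nath-10, an acetyltransferase whose yeast counterpart acts on 18S rRNA, had 301, 302 and 209 CPM in auxin gonads, against 188 and 106 CPM in ethanol gonads, and also rose (log2 change 0.96, edgeR adjusted p = 0.0368). abcf-3, an ATP-binding protein of the ABCF family, had 546, 473 and 545 CPM in auxin gonads, against 267 and 242 CPM in ethanol gonads (log2 change 1.02, edgeR adjusted p = 0.016). All 3 overlap a gene on the other strand.

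tos-1, used as a reporter of alternative splicing in worms, had 1158, 1458 and 1173 CPM in auxin gonads, against 346 and 713 CPM in ethanol gonads (log2 change 1.26, edgeR adjusted p = 0.0113). The X-linked gene C39D10.7 was one of the more abundant that fell, with 1024, 1341 and 943 CPM in auxin gonads, against 2295 and 3170 CPM in ethanol gonads (log2 change -1.29, edgeR adjusted p = 0.0036). None of these 5 passed in the test over all features or without auxin replicate 3.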
